A study of Sus scrofa with 14 samples.

Results

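Chemokines and their receptors were described in 2 adipose tissue (AT) depots of wild boars (WB in the plots) and Bama pigs (BM), the greater omentum (GOM), a visceral depot, and the upper layer of backfat (ULB), a subcutaneous one. The genes were taken by symbol, as CCL, CXCL, CX3CL, XCL, CCR, CXCR, CX3CR, XCR or ACKR followed by a number. The rule itself uses no measured value, although it was chosen with earlier results of these data known. This gave 42 of the 21280 genes quantified, with 24 ligands (16 of the CC, 7 of the CXC and 1 of the XC type), 14 receptors and 4 atypical receptors. The symbols CCL22 and CCR8 also met the rule but were not analysed here. All pigs were healthy females of 2 years, raised on one farm. The wild boars were thus captive rather than free-living animals, and the Bama pigs, a fat-type breed of South China, were not of an inbred line. Both RNA-seq and Hi-C had 2 libraries for each depot of the wild boars, 2 for the omentum of the Bama pigs and 1 (replicate 2) for their backfat, which makes 7 libraries per assay. The labels name no treatment or genotype, and the 4 pigs gave both depots, so libraries of the 2 depots share animals.

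Chemokines are small secreted proteins that guide leukocytes along gradients, and they are sorted into families by the spacing of their first cysteines. They act on G protein-coupled receptors of leukocytes, which signal through Gi proteins to integrins and the cytoskeleton. Atypical receptors bind chemokines without this signalling and take up, transport or scavenge them. In adipose tissue, chemokines come from stromal cells, vessels, adipocytes and resident leukocytes, and several of them recruit macrophages and T cells.

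The estimated counts of a library summed to between 10833153 and 18627076, and TPM is a gene's transcript abundance after correction for transcript length and library size. Markers of other cell types and tissues were uneven. Of 6 T cell genes 5 were listed, with a summed TPM of 14.0 to 42.9 in GOM and 9.82 to 10.5 in ULB. The 6 macrophage genes summed to 331 to 622 in GOM and 237 to 501 in ULB. The 3 listed of 5 neutrophil genes summed to 237 to 1060 in GOM and 66.1 to 285 in ULB. The 6 adipocyte genes lay between 9576 and 18196 in all libraries, so the adipose label held. Red cell genes were higher in wild boar (1965 to 12579) than in Bama pig (173 to 1427), liver genes were higher in Bama pig (106 to 1117) than in wild boar (12.5 to 88.5), and muscle genes reached 291 in wild boar ULB replicate 1 and at most 6.41 elsewhere. In bulk tissue, fewer cells of a type and less RNA per cell cannot be told apart.

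The promoters of 2 ligands and 1 receptor are shown because CXCL9 and CXCL10, ligands of CXCR3 that interferon gamma induces, held the letters of an interferon-stimulated response element, and because CXCR4 was the member called in the depot comparison below. Each sequence is the 250 bases before the RefSeq start site in Sscrofa11.1, read in the direction of transcription. They lie at chr8:71670237-71670486 (minus strand), chr8:71695949-71696198 (minus strand) and chr15:15663402-15663651 (plus strand). Capitals mark a response element match, read here as GAAA and GAAA spaced by 2 bases, in CXCL9, the same and the NF-kB consensus in CXCL10, and TATAAA (on either strand, with overlapping matches) in CXCR4.
CXCL9: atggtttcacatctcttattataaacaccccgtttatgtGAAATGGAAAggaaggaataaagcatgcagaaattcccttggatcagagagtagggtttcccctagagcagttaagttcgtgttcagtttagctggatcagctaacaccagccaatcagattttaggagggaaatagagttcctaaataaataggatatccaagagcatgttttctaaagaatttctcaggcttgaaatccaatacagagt
CXCL10: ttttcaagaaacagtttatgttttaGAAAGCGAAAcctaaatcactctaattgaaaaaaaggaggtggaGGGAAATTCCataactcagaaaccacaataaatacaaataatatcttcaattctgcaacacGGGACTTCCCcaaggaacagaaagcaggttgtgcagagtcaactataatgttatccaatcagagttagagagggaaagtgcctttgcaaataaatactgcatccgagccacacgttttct
CXCR4: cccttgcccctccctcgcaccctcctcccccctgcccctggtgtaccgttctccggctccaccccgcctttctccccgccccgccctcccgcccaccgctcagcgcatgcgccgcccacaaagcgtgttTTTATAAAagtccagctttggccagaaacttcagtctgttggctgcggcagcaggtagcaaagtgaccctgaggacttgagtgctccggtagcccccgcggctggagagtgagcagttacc

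On both strands, the spaced GAAA pair occurred in the 250-base window of 4 of the 42 members (CCL19, CCR3, CXCL10 and CXCL9; 9.52%) and of 2.99% of 19498 genes. The NF-kB consensus occurred in 10 members (23.8%) and in 14.0% of all windows, and TATAAA in 9 members (21.4%) and in 9.76%. TTC and GAA spaced by 3 bases, the letters of a STAT element, occurred in 6 members (14.3%), CCL2 and CXCL8 among them, and in 6.1% of all windows. CCR1 and XCR1, also among the 6, have overlapping windows, and their match is the same site counted for each. In CXCL10 the first match began 225 bases and the NF-kB matches 181 and 120 bases before the start site, and in CXCL9 the match began 211 bases before it. A match describes letters in the window and is not evidence of binding.

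Of the 42 members, 20 had a median TPM of at least 5 over the 7 libraries, 10 lay between 1 and 5, and 12 were under 1. Over all genes, 46.8% had a median of at least 5. Ligands were split, with 12 of 24 at a TPM of 5 or more, whereas 4 of 14 receptors (CXCR4 and CCR1 among them) and all 4 atypical receptors reached it. The summed TPM was 538 to 820 for ligands, 35.7 to 111 for receptors and 146 to 802 for atypical receptors. CCL27, a skin chemokine, was listed at 0 in all 7 libraries, and CCL1 had at most 1 count in a library.

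**Figure D1:**
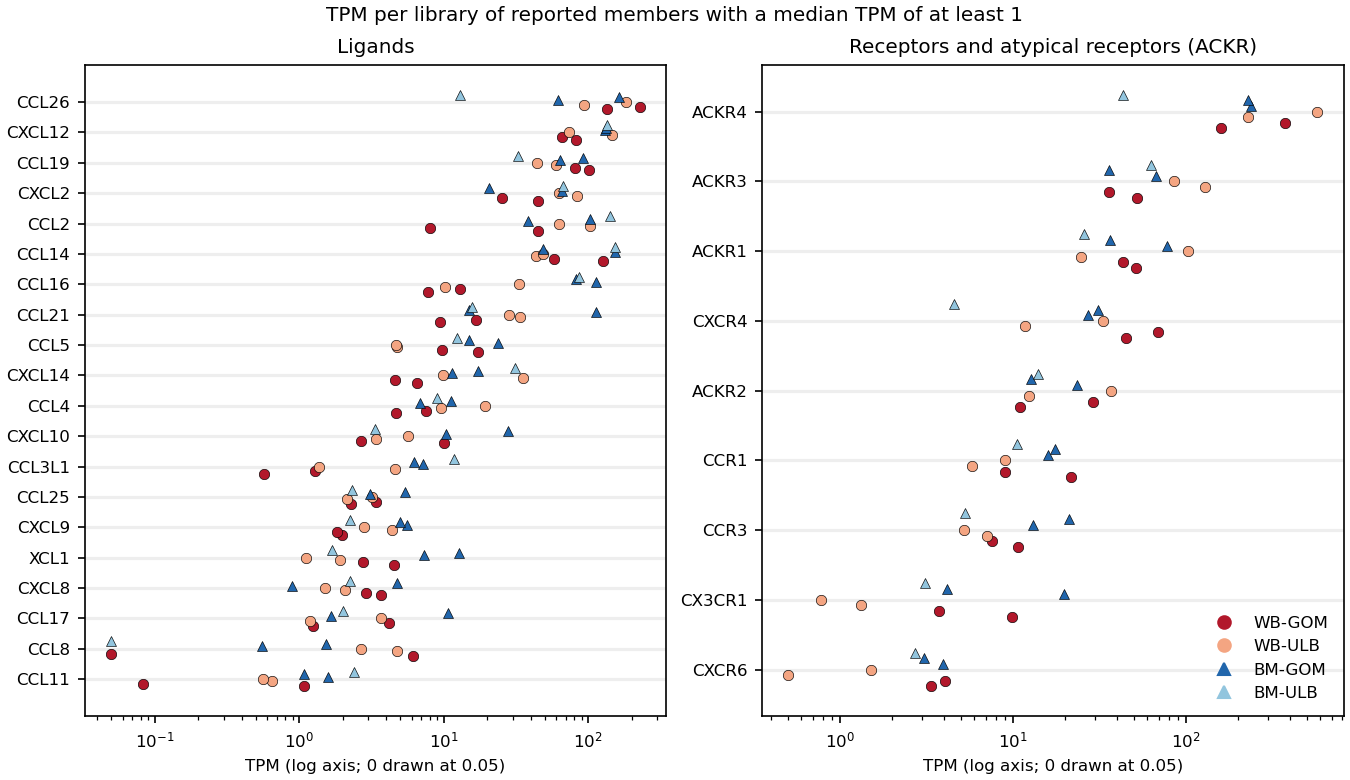
TPM of members with a median TPM of at least 1, per library on a log axis, with 20 ligands on the left and 9 receptors on the right; circles are wild boar, triangles Bama pig, dark colours GOM and light colours ULB. ACKR4 and CCL26 had the highest medians in their panels, and Bama pig ULB (light triangles) was the lowest library for both.

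ACKR4, an atypical receptor that scavenges CCL19, CCL21 and CCL25, had the highest median of all members. Its TPM was 159 and 374 in the GOM of wild boars, 228 and 577 in their ULB, 239 and 229 in the GOM of Bama pigs and 43.3 in their ULB. Replicates of a group differed by more than 2 times in wild boar, and the Bama pig ULB library stood below the other 6. ACKR4 (chromosome 13, 73773862 to 73777770) lies within ACAD11 on the opposite strand, and the stated quantification does not say that it used strand, so the share of ACAD11 reads in this level is not known.

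The next levels belonged to CCL26 (eotaxin-3, which attracts eosinophils through CCR3), with a TPM of 135 and 228 in the GOM of wild boars, 93.2 and 183 in their ULB, 62.2 and 164 in the GOM of Bama pigs and 13.1 in their ULB. CXCL12, a stromal chemokine that retains leukocytes and progenitors, had 82.0 and 65.6 in the GOM of wild boars, 146 and 73.2 in their ULB, 130 and 132 in the GOM of Bama pigs and 136 in their ULB. These neighbours overlapped in their ranges, as did CCL19, CXCL2, CCL2 and CCL14 with medians between 57.9 and 63.9, so their order within the tissue was not resolved.

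The depots were compared over both breeds with edgeR's quasi-likelihood test in a model of depot and breed, with Benjamini-Hochberg adjustment, and a gene counted as called when its adjusted p was under 0.05 and its log2 fold change was beyond 1 in either direction. Of the 42 members 40 passed the filter on low values, and CCL27 and CXCR5 did not. CXCR4, the signalling receptor of CXCL12, rose in GOM, and it was the member called, 1 of 40 against 3.5% of all 17934 genes tested (2.28% higher and 1.22% lower in GOM). DESeq2 called 6 members (ACKR3, CCL2, CX3CR1, CXCL14 and CXCR4 among them) and 7.19% of all genes. At an unadjusted p below 0.05 there were 15 members, 11 higher and 4 lower in GOM, against 18.9% of all genes (10.9% higher and 7.99% lower). Receptors lay mostly above 0, with 12 of 13 positive and a median log2 fold change of 0.96, whereas 11 of 23 ligands were positive with a median of -0.10. Over all genes the median was 0.04 and 52.2% were positive.

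**Figure D2:**
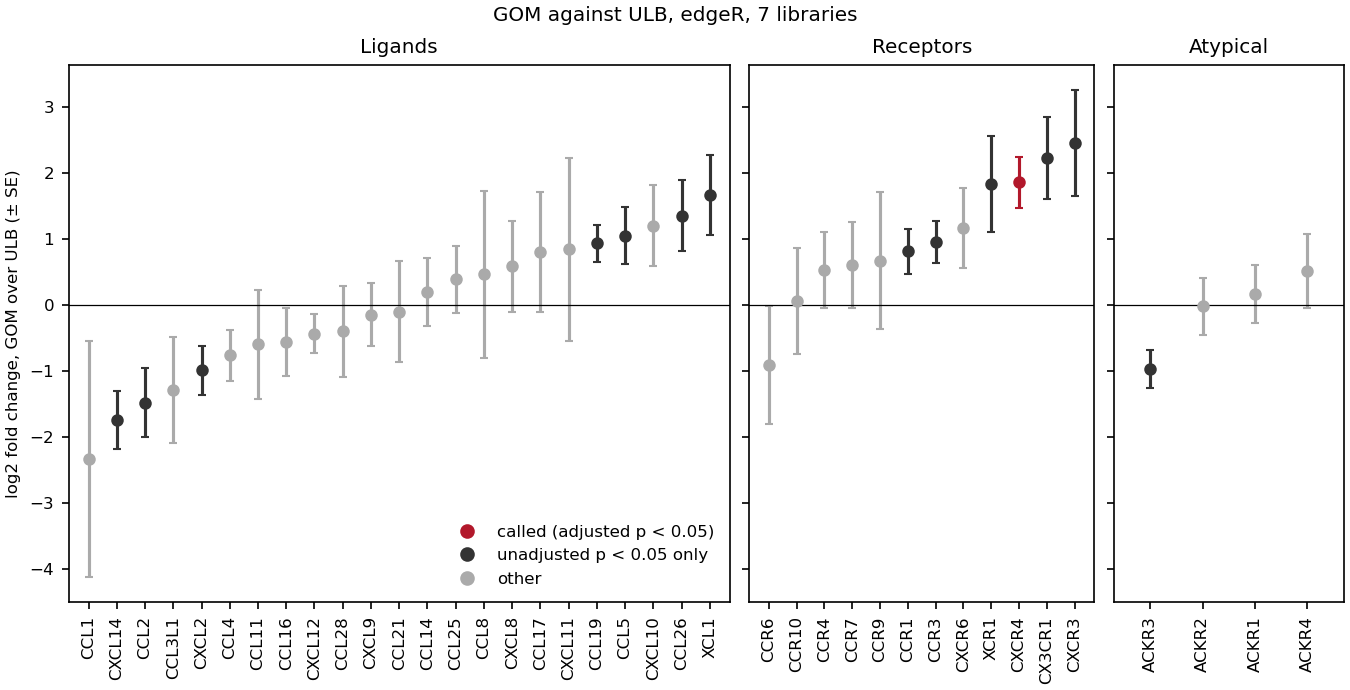
Log2 fold change of GOM over ULB with its standard error for 39 of the 40 members tested, sorted within ligands, receptors and atypical receptors. CXCR4 (red) was called; dark points had an unadjusted p below 0.05, and 11 of the 12 receptors drawn lie above 0.

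CXCR4 (chromosome 15, 15663652 to 15666706) had a TPM of 45.0 and 69.6 in the GOM of wild boars, 11.8 and 33.2 in their ULB, 27.3 and 31.2 in the GOM of Bama pigs and 4.57 in their ULB. Within each breed every GOM library was above every ULB library, but wild boar ULB replicate 2 exceeded both Bama pig GOM libraries. The log2 fold change was 1.86 (SE 0.39, adjusted p = 0.0262, edgeR). The call was lost without wild boar GOM replicate 2 (1.67, adjusted p = 0.103, edgeR), without wild boar ULB replicate 1 (1.63, adjusted p = 0.0913, edgeR) and without Bama pig ULB (1.61, adjusted p = 0.172, edgeR).

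ACKR3, the scavenging receptor of CXCL12, had the opposite sign. Its TPM was 52.2 and 36.0 in the GOM of wild boars, 129 and 85.4 in their ULB, 67.0 and 36.3 in the GOM of Bama pigs and 63.3 in their ULB, with a log2 fold change of -0.96 (SE 0.29, adjusted p = 0.104, edgeR), so it was not called. Bama pig GOM replicate 1 was above the Bama pig ULB library, and the depots overlapped. The ratio of CXCR4 to ACKR3 TPM was 0.862 and 1.93 in the GOM of wild boars, 0.0917 and 0.389 in their ULB, 0.407 and 0.861 in the GOM of Bama pigs and 0.0722 in their ULB, so all 4 GOM libraries were above all 3 ULB libraries. This ratio was formed after the values were seen, and no test was made on it. The ligand CXCL12 itself had a log2 fold change of -0.43 (SE 0.30, adjusted p = 0.469, edgeR).

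Of the 40 tested members, 7 had all 4 GOM libraries above all 3 ULB libraries in TPM (CCL19, CCR3, CX3CR1, CXCR3, CXCR6 and XCL1 among them), against 8.3% of all genes. None of the 40 had all ULB above all GOM libraries, against 2.64%. Rescaling TPM to the same total over the listed genes left 5, without CCL19 and CXCR6. Of these 7, 5 are receptors of leukocytes.

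CX3CR1, the fractalkine receptor of patrolling monocytes and resident macrophages, had a TPM of 9.97 and 3.76 in the GOM of wild boars, 1.33 and 0.778 in their ULB, 19.9 and 4.15 in the GOM of Bama pigs and 3.12 in their ULB. Its log2 fold change was 2.24 (SE 0.62, adjusted p = 0.0829, edgeR). All GOM libraries were above all ULB libraries, with Bama pig GOM replicate 1 the highest.

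CCR1, a receptor of CCL5 on monocytes and macrophages, overlapped between depots, with 21.6 and 9.07 in the GOM of wild boars, 5.79 and 9.01 in their ULB, 16.0 and 17.5 in the GOM of Bama pigs and 10.6 in their ULB. Its ligand CCL5, made by T cells, had 17.4 and 9.74 in the GOM of wild boars, 4.76 and 4.66 in their ULB, 23.6 and 14.9 in the GOM of Bama pigs and 12.3 in their ULB, a log2 fold change of 1.05 (SE 0.43, adjusted p = 0.219, edgeR), which was 1.68 without Bama pig ULB. CCL4, a macrophage inflammatory protein, pointed the other way at -0.76 (SE 0.39, adjusted p = 0.324, edgeR). Within each breed CCL5 was above ULB in every GOM library, without a call, while CCL4 had a TPM of 4.65 and 7.54 in the GOM of wild boars, 9.55 and 19.4 in their ULB, 6.84 and 11.2 in the GOM of Bama pigs and 9.06 in their ULB, with overlapping depots. CCL14, a CC ligand of CCR1, had 126 and 57.9 in the GOM of wild boars, 43.7 and 48.5 in their ULB, 153 and 49.1 in the GOM of Bama pigs and 154 in their ULB, and wild boar GOM replicate 1 stood with 2 of the Bama pig libraries above the rest.

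CCR3, the eotaxin receptor, had 10.7 and 7.62 in the GOM of wild boars, 7.07 and 5.26 in their ULB, 13.2 and 21.3 in the GOM of Bama pigs and 5.31 in their ULB (log2 fold change 0.96, SE 0.31, adjusted p = 0.133, edgeR). Its ligand CCL26 had a log2 fold change of 1.36 (SE 0.54, adjusted p = 0.207, edgeR), which was 0.65 without the Bama pig ULB library. The other eotaxin listed, CCL11, had a TPM of 1.08 and 0.0824 in the GOM of wild boars, 0.651 and 0.563 in their ULB, 1.59 and 1.08 in the GOM of Bama pigs and 2.41 in their ULB. It was below CCL26 in each library.

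CXCR3, the receptor of CXCL9, CXCL10 and CXCL11 on activated T cells, was low, with a TPM of 0.860 and 0.390 in the GOM of wild boars, 0.0434 and 0.262 in their ULB, 0.930 and 1.22 in the GOM of Bama pigs and 0.118 in their ULB, that is 11 to 24 counts in each GOM library and 1 to 6 in each ULB library (log2 fold change 2.46, SE 0.81, adjusted p = 0.133, edgeR, and 3.31 without wild boar ULB replicate 2). CXCL10 had a TPM of 10.1 and 2.70 in the GOM of wild boars, 3.40 and 5.70 in their ULB, 10.4 and 28.0 in the GOM of Bama pigs and 3.34 in their ULB, with overlapping depots. CXCL9 had 1.99 and 1.83 in the GOM of wild boars, 4.37 and 2.83 in their ULB, 5.59 and 4.98 in the GOM of Bama pigs and 2.26 in their ULB. CXCL11 had 1.27 and 0 in the GOM of wild boars, 1.08 and 0 in their ULB, 0.839 and 2.16 in the GOM of Bama pigs and 0.329 in their ULB, from at most 9 counts, and neither separated the depots. Of the 3 ligands CXCL10 was thus the most abundant in 6 of the 7 libraries, the exception being wild boar ULB replicate 1, where CXCL9 had 4.37. CXCL10 and CXCL11 overlap ART3 on the opposite strand, and the share of ART3 reads in their levels is not known.

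XCL1, a chemokine of activated lymphocytes, had a TPM of 4.51 and 2.77 in the GOM of wild boars, 1.91 and 1.12 in their ULB, 7.32 and 12.7 in the GOM of Bama pigs and 1.69 in their ULB (log2 fold change 1.67, SE 0.61, adjusted p = 0.173, edgeR). Its receptor XCR1, of cross-presenting dendritic cells, had a TPM of 0.513 and 0.304 in the GOM of wild boars, 0.0982 and 0.164 in their ULB, 4.83 and 0.533 in the GOM of Bama pigs and 0.510 in their ULB. Bama pig GOM replicate 1 had 245 counts and the other 6 libraries 5 to 26. The annotated start of XCR1 lies 60 bases from that of CCR1, on the same strand and with overlapping gene spans, so reads of the pair may have been shared between them.

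Among chemokines of lymphatic vessels and lymph nodes, CCL19 had a TPM of 101 and 81.6 in the GOM of wild boars, 59.6 and 44.1 in their ULB, 63.9 and 92.5 in the GOM of Bama pigs and 32.8 in their ULB. The log2 fold change was 0.94 (SE 0.28, adjusted p = 0.102, edgeR), and no ULB library reached the lowest GOM library. CCL21, which shares the receptor CCR7, had 9.43 and 16.7 in the GOM of wild boars, 33.7 and 28.5 in their ULB, 113 and 14.9 in the GOM of Bama pigs and 15.6 in their ULB, so Bama pig GOM replicate 1 stood apart from the other 6. CCR7 itself had 0.328 and 0.900 in the GOM of wild boars, 0.476 and 0.152 in their ULB, 0.879 and 0.656 in the GOM of Bama pigs and 0.659 in their ULB. The ligands thus exceeded their signalling receptor by at least an order of magnitude in each library, and ACKR4, which scavenges both, also exceeded it.

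**Figure D3:**
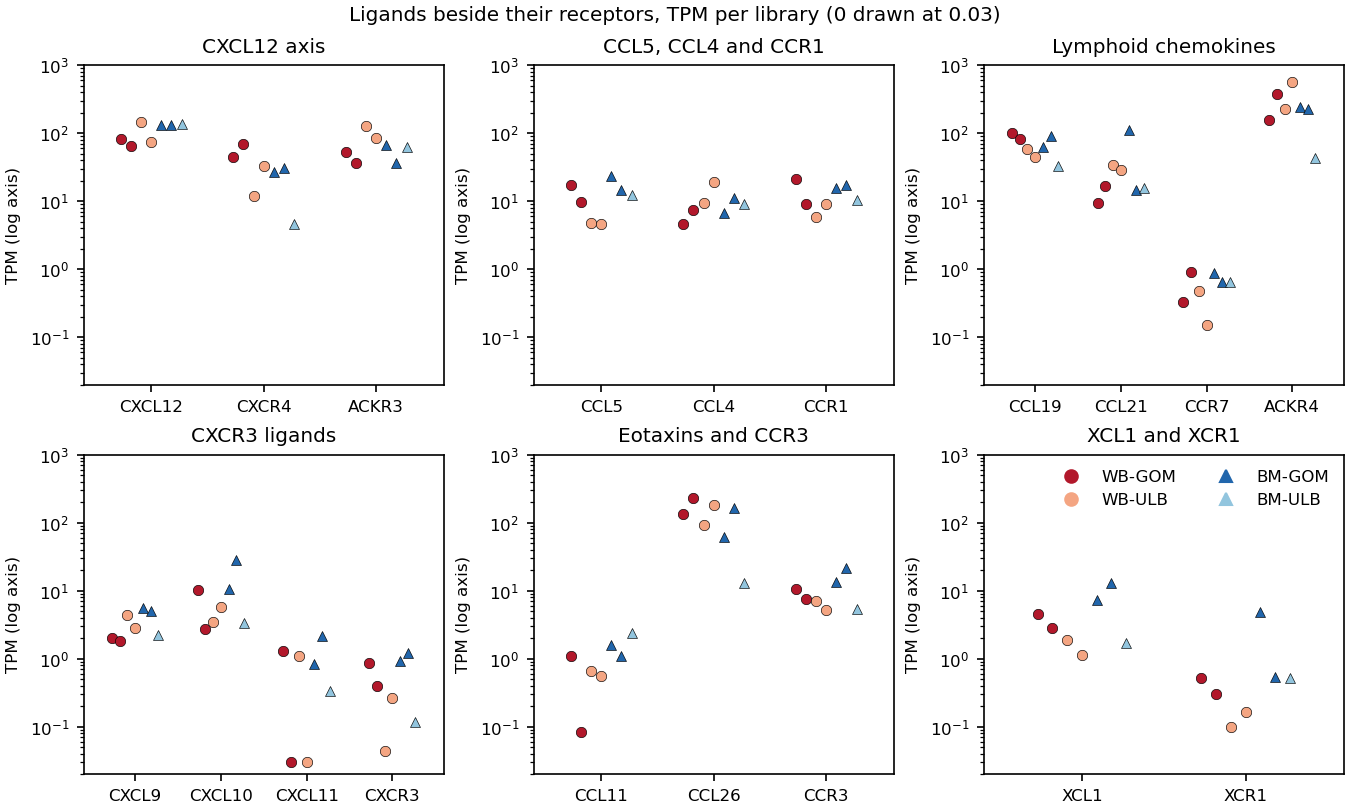
TPM per library on a log axis for 6 sets of ligands and receptors; circles are wild boar, triangles Bama pig, dark colours GOM and light colours ULB. In the CXCL12 set CXCR4 is higher and ACKR3 lower in GOM than in ULB within wild boar, and in the lymphoid set CCR7 lies at 0.152 to 0.900 while its ligands and ACKR4 lie above 9.

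The 4 members lower in GOM at an unadjusted p below 0.05 were CXCL14, CCL2, CXCL2 and ACKR3. CXCL14, a chemokine of stromal and epithelial cells, had a TPM of 6.50 and 4.62 in the GOM of wild boars, 35.2 and 9.95 in their ULB, 11.5 and 17.3 in the GOM of Bama pigs and 31.3 in their ULB (log2 fold change -1.74, SE 0.44, adjusted p = 0.0591, edgeR). Without wild boar ULB replicate 1, the library with muscle transcripts, it was -1.10 (adjusted p = 0.267, edgeR). CCL2, the main monocyte attractant, had 45.2 and 8.03 in the GOM of wild boars, 102.3 and 62.8 in their ULB, 38.3 and 103 in the GOM of Bama pigs and 142 in their ULB (log2 fold change -1.48, SE 0.53, adjusted p = 0.164, edgeR, and -2.20 without wild boar GOM replicate 1). CXCL2, a neutrophil attractant, had 44.7 and 25.2 in the GOM of wild boars, 84.1 and 63.2 in their ULB, 65.6 and 20.6 in the GOM of Bama pigs and 67.4 in their ULB (log2 fold change -0.98, SE 0.37, adjusted p = 0.187, edgeR). For all 3, each GOM library was below each ULB library within wild boar and within Bama pig, and the depots overlapped only across breeds.

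ACKR1, the chemokine carrier of venules and red cells, had a TPM of 51.5 and 43.5 in the GOM of wild boars, 24.8 and 103 in their ULB, 77.7 and 36.4 in the GOM of Bama pigs and 25.7 in their ULB (log2 fold change 0.17, SE 0.44). ACKR2, a scavenger of inflammatory CC chemokines, had 10.96 and 29.3 in the GOM of wild boars, 12.4 and 36.9 in their ULB, 23.6 and 12.8 in the GOM of Bama pigs and 14.0 in their ULB (log2 fold change -0.02, SE 0.44). Both varied between replicates of a group as much as between depots. The gene span of ACKR2 overlaps that of ZNF662 on the same strand, so the share of ZNF662 reads in its level is not known. CCL17, which attracts T cells through CCR4, had 1.24 and 4.19 in the GOM of wild boars, 1.18 and 3.68 in their ULB, 1.65 and 10.7 in the GOM of Bama pigs and 2.00 in their ULB, and CCL25, the ligand of CCR9, had 2.30 and 3.40 in the GOM of wild boars, 2.14 and 3.21 in their ULB, 3.10 and 5.36 in the GOM of Bama pigs and 2.31 in their ULB. Bama pig GOM replicate 2 was the highest library for both. CXCR6, a chemokine receptor of T cells, ranged from 0.506 to 4.08 TPM, CXCL8, a neutrophil attractant, from 0.893 to 4.73 and CCL8, a monocyte attractant, from 0 to 6.11. CCR4, CCR6, CCR7, CCR9 and CCR10 stayed under 2 TPM in each library. CXCR5, a chemokine receptor of B cells, had 62 counts in Bama pig ULB and at most 1 in the other libraries, and it was not tested. CCL17, CXCR5 and CXCR6 overlap CIAPIN1, BCL9L and FYCO1, in that order, on the opposite strand. The share of reads from those genes is not known.

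Other genes of the pathway were counted from set lists. The lists were chosen with earlier results of these data known, so their counts are descriptive. Of 30 tested genes of chemokine signalling, 7 were called higher in GOM (PLCB2, PTK2B, GRK5, TIAM1, DOCK2, RAC2 and PRKCB) and 0 lower, against 2.28% and 1.22% of all genes. Their median log2 fold change was 0.66, and that of all genes was 0.04. PRKCB, a protein kinase C of leukocytes, had a log2 fold change of 2.04 (SE 0.30, adjusted p = 0.00474, edgeR). RAC2, the leukocyte Rac GTPase that drives migration, had 1.70 (SE 0.33, adjusted p = 0.0176, edgeR), and DOCK2, its activator, had 1.42 (SE 0.28, adjusted p = 0.0200, edgeR). Of 8 tested adhesion genes 3 were called, all higher in GOM (2.28% of all genes), among them the selectin SELP (1.65, SE 0.33) and the integrin chain ITGB2 (1.71, SE 0.25). Of 8 tested inducers of chemokines 0 were called by edgeR, and 1, IL6, had an unadjusted p below 0.05, at -1.62 (SE 0.44, adjusted p = 0.0781, edgeR). PPBP, a platelet chemokine outside the symbol rule, was called higher in GOM, with a TPM of 113 and 42.4 in the GOM of wild boars, 5.48 and 3.85 in their ULB, 20.9 and 25.9 in the GOM of Bama pigs and 7.14 in their ULB (log2 fold change 2.97, SE 0.64, adjusted p = 0.0319, edgeR).

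Markers of some leukocytes and of blood differed between depots as well. CD2, a T cell gene, and S100A8, a neutrophil gene, were called higher in GOM, and the mesothelial gene WT1 (the 1 listed of 5 mesothelial markers) was at 19.9 to 83.7 TPM in GOM and 0 to 0.253 in ULB. The median log2 fold change was 1.70 over 5 T cell genes, 0.89 over 6 macrophage genes and -0.54 over 5 B cell genes, and no macrophage, B cell or cytotoxic gene was called by edgeR (3, 0 and 0 of them had an unadjusted p below 0.05). Of 3 red cell genes none was called, all 3 had an unadjusted p below 0.05, and their median was 1.88. Red cell TPM summed to 7889 and 12579 in the GOM of wild boars, 2312 and 1965 in their ULB, 173 and 1427 in the GOM of Bama pigs and 347 in their ULB. Summed receptor TPM was 101 to 111 in GOM and 35.7 to 58.5 in ULB. The part that leukocyte and blood content has in the receptor and PPBP values was not tested.

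The breeds were compared over both depots in the same model. No member was called by edgeR (0 of 40, against 0.446% of 17934 genes), 8 had an unadjusted p below 0.05 (20.7% of all genes), and DESeq2 called 5 (ACKR4, CCL16, CCL26, CXCR4 and XCR1; 5.9% of all genes). The members nearest to the threshold were CXCR4, higher in wild boar, and CCL16, lower in wild boar. The median log2 fold change over all genes was -0.03, and it moved to -0.27 when counts were scaled by library totals alone, so smaller values are read against that shift.

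CXCR4 had a log2 fold change of 1.80 for wild boar over Bama pig (SE 0.38, adjusted p = 0.0714, edgeR). Within each depot every wild boar library was above every Bama pig library, while wild boar ULB replicate 1 lay below both Bama pig GOM libraries. CCL26 had 1.96 (SE 0.55, adjusted p = 0.122, edgeR), and 1.26 without Bama pig ULB. ACKR4 had 1.63 (SE 0.57, adjusted p = 0.166, edgeR), and 0.81 without that library.

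CCL16 (chromosome 12, 39618187 to 39621557), a monocyte attractant known from liver, had a TPM of 7.78 and 12.99 in the GOM of wild boars, 10.2 and 33.2 in their ULB, 113 and 82.3 in the GOM of Bama pigs and 86.8 in their ULB. All 3 Bama pig libraries were above all 4 wild boar libraries, and the log2 fold change was -2.38 (SE 0.51, adjusted p = 0.0733, edgeR). Liver genes other than TF moved with it, with ALB at 1.95 to 6.61 TPM in wild boar and 77.7 to 873 in Bama pig. Of 5 liver genes 3 (APOB, ALB and FGB) were called lower in wild boar. TF had a log2 fold change of -0.14 (SE 0.55, adjusted p = 0.909, edgeR). Its TPM was 7.10 to 79.9 in wild boar and 10.3 to 105 in Bama pig. Within Bama pig, the library with the highest liver sum (1117, GOM replicate 2) had the lowest CCL16. The part of liver transcripts in the CCL16 values was not tested.

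In all, 4 of 40 members (CCL11, CCL16, CCL28 and CCL3L1) had all Bama pig above all wild boar libraries, against 11.7% of all genes, and 0 had the reverse order, against 1.08%. CCL11 left this group when TPM was rescaled. CCL3L1 is a macrophage inflammatory protein, and whether its reads are split among near-identical copies in the pig was not checked. It had a TPM of 0.574 and 1.28 in the GOM of wild boars, 4.63 and 1.38 in their ULB, 7.20 and 6.28 in the GOM of Bama pigs and 11.9 in their ULB. These came from 1 to 8 counts in wild boar and 9 to 18 in Bama pig. CCL28, a mucosal chemokine, had 5 to 8 counts in wild boar and 10 to 32 in Bama pig.

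Within GOM alone, the comparison had 2 libraries of each breed, and 39 members were tested. edgeR called 0 of them (0.0241% of 16615 genes were called), 2 had an unadjusted p below 0.05 (8.0% of all genes), and DESeq2 called CCL16 (1.01% of all genes). CXCR4 had a log2 fold change of 1.59 (SE 0.43, adjusted p = 0.577, edgeR), which was 1.06 without wild boar GOM replicate 2, and CCL16 -2.58 (SE 0.70, adjusted p = 0.582, edgeR). The depot difference was also set against breed in a model with an interaction. edgeR called 0 of 40 members and 0.0% of all genes, DESeq2 called 0 members (0.29% of all genes), and CCL14, CCR9, ACKR4 and CXCR6 had an unadjusted p below 0.05 (4 of 40, against 4.65% of all genes) with an adjusted p of 0.981 each. A difference in depot response between the breeds was therefore not detected for any member, and 1 Bama pig ULB library carries each of these estimates.

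Hi-C was used to place the members in compartments, by the first principal component (PC1) of the contact matrix in 20-kb bins, where a positive value marks compartment A, the more open one, and a negative value compartment B. By the study's methods, Hi-C nuclei came from the floating adipocyte layer, whereas RNA was extracted from the tissue, so the assays do not sample the same cells. The start sites of the 41 autosomal members fell in 38 bins (CXCR3 is on the X chromosome). PC1 was positive in all 7 libraries for 25 members, against 72.0% of 18683 genes, negative in all for 7 (CCL1, CCL11, CCL2, CCL3L1, CCL4, CCL8 and CXCL12), against 15.3%, and mixed for 9, against 12.6%. All 13 autosomal signalling receptors were among the 25, while each of the 7 was a ligand. These genes are not independent. CCR9, CXCR6, XCR1, CCR1 and CCR3 lie in 1 cluster, and XCR1 and CCR1 share a bin. CCL1, CCL8, CCL11 and CCL2 form another cluster, and CCL3L1 and CCL4 share a bin.

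CXCL12 combined a negative PC1 (-10.1 to -0.34) with a high TPM, and CCL2 did so with -26.9 to -9.55. Of the 20 members with a median TPM of at least 5, 3 (CCL2, CCL4 and CXCL12) were negative in all libraries, against 4.17% of 8058 placed genes at that level. CXCL12 lay close to 0 in wild boar ULB (-0.34 and -0.52), so its compartment is not firmly set there.

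Of the members described, 22 lie in 6 clusters. The receptors CCR9, CXCR6, XCR1, CCR1 and CCR3 span 252.9 kb of chromosome 13 (29033609 to 29286470), with a mean PC1 of 41.5 to 49.4 and 14 of 14 bins positive in each library. CXCL8 and CXCL2 (226.5 kb of chromosome 8) had 24.2 to 30.1, and CXCL9, CXCL10 and CXCL11 (60.1 kb of the same chromosome) had 18.3 to 27.1. The CC ligands CCL1, CCL8, CCL11 and CCL2 (72.0 kb of chromosome 12) had -27.6 to -16.6, with 0 positive bins in any library.

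The cluster of CCL4, CCL3L1, CCL14, CCL16 and CCL5 (179.9 kb of chromosome 12) was nearer to 0. Its mean PC1 was -1.77 and -6.81 in the GOM of wild boars, -5.23 and -0.34 in their ULB, -9.76 and -14.1 in the GOM of Bama pigs and -1.10 in their ULB. The bin that holds both CCL14 and CCL16 was at -8.60 and -11.8 in Bama pig GOM, below the other 5 libraries (-4.05 to 0.94), while CCL16 TPM was highest in Bama pig. The 2 clusters on chromosome 12 thus differed in level, although both hold CC ligands.

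**Figure D4:**
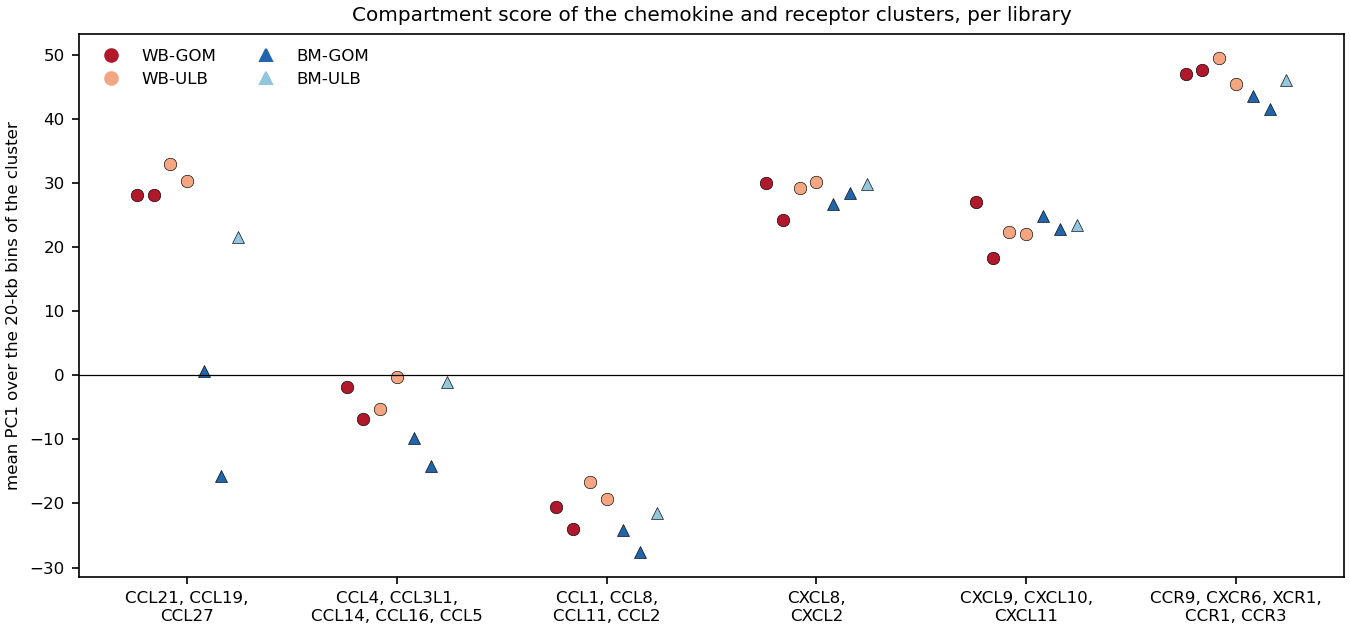
Mean PC1 over the 20-kb bins of each cluster, per library; positive is compartment A. The receptor cluster lies at 41.5 to 49.4 in all libraries, the CCL1 to CCL2 cluster at -27.6 to -16.6, and the CCL21, CCL19 and CCL27 cluster falls to 0.61 and -15.8 in Bama pig GOM (dark triangles).

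The lymphoid cluster of CCL21, CCL19 and CCL27 (45.2 kb of chromosome 10, 32093783 to 32138980) varied most. Its mean PC1 was 28.2 and 28.1 in the GOM of wild boars, 33.0 and 30.4 in their ULB, 0.61 and -15.8 in the GOM of Bama pigs and 21.5 in their ULB. For the CCL21 bin the sign differed between breeds in GOM, and it was the 1 of 38 member bins that switched by sign in every replicate, against 2.41% of all bins. Over all autosomes 2726 of 113298 bins switched, and without chromosome 10 it was 1696 of 109830 (1.54%). Chromosome 10 thus held many of the switched bins, and the switch was not particular to this cluster. PC1 along this chromosome was less alike between GOM replicates (r across bins 0.603 in wild boar and 0.737 in Bama pig) than between wild boar ULB replicates (0.96), bins of a chromosome not being independent. CCL21 TPM was nonetheless highest in Bama pig GOM replicate 1, whose CCL21 bin was at -2.87, and CCL19 TPM overlapped between the breeds in GOM, at 63.9 and 92.5 in Bama pig against 81.6 and 101 in wild boar.

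With limma over 113298 bins, 0 of 38 member bins were called between depots (2.3% of all bins were called), and 7 had an unadjusted p below 0.05 (21.2% of all bins). The lowest adjusted p was that of CXCL14, with a PC1 of 4.49 and -1.26 in the GOM of wild boars, 21.0 and 6.59 in their ULB, -8.72 and -7.86 in the GOM of Bama pigs and 7.22 in their ULB. The difference of -13.5 (SE 3.69, adjusted p = 0.0878, limma) had the same sign as its difference in TPM, and all GOM bins were below all ULB bins. The PC1 difference was 7.39 (SE 3.18, adjusted p = 0.225, limma) for CX3CR1 and 5.34 (SE 3.47, adjusted p = 0.407, limma) for CXCR4. Both had the sign of their difference in expression, and for both the depots overlapped in PC1. CCL19 had opposite signs, with a log2 fold change in expression of 0.94 and a lower PC1 in GOM within each breed. Its PC1 was 28.6 and 28.8 in the GOM of wild boars and 30.6 and 32.3 in their ULB. In Bama pigs it was 0.47 and -15.9 in GOM and 20.5 in ULB. The match of signs was not counted over all members.

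Between breeds 0 of 38 member bins were called by limma (0.00971% of all bins), and 5 had an unadjusted p below 0.05 (12.1% of all bins). CCL27 and CCL19 had the lowest adjusted p (0.228, limma), with PC1 higher in wild boar by 26.9 (SE 5.56) and 26.2 (SE 5.59). Without Bama pig ULB the 3 bins of this cluster were called, with adjusted p of 0.0215 to 0.0283 (limma). In that refit 1523 of 113298 bins were called in all, against 11 in the reported fit. The 3 bins are adjacent and not independent. Between depots in wild boar, 0 of 38 member bins switched sign, against 2.0% of all bins.

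TADs are domains within which contacts are enriched. The authors merged replicates before calling them and gave 1 list for each of the 4 groups, so there is no replicate check. For Bama pig ULB the methods name a further library from earlier work, which was not analysed here. The CCL1 to CCL2, CXCL8 and CXCL2, CXCL9 to CXCL11 and receptor clusters each lay within 1 TAD in all 4 lists. Those TADs had lengths of 340, 440 to 460, 180 to 200 and 540 to 580 kb, with ends that moved by at most 20 kb. CXCL9, CXCL10 and CXCL11 thus shared a domain in every group, although only the promoter windows of CXCL9 and CXCL10 held the spaced GAAA pair.

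The CCL4 to CCL5 cluster was divided in 3 of 4 lists. In wild boar GOM, 1 TAD of 320 kb (39380001 to 39700000) held all 5 genes, whereas in the other 3 lists a TAD ended at 39640000, between CCL16 and CCL5, and CCL5 lay in no TAD. CCL5 TPM was 17.4 and 9.74 in wild boar GOM and 4.66 to 23.6 in the groups with the boundary. On chromosome 10, a TAD began at 32120001 in wild boar GOM, between CCL19 and CCL27, and at 32100001 in Bama pig GOM, between CCL21 and CCL19, and no TAD of the ULB lists overlapped the cluster.

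**Figure D5:**
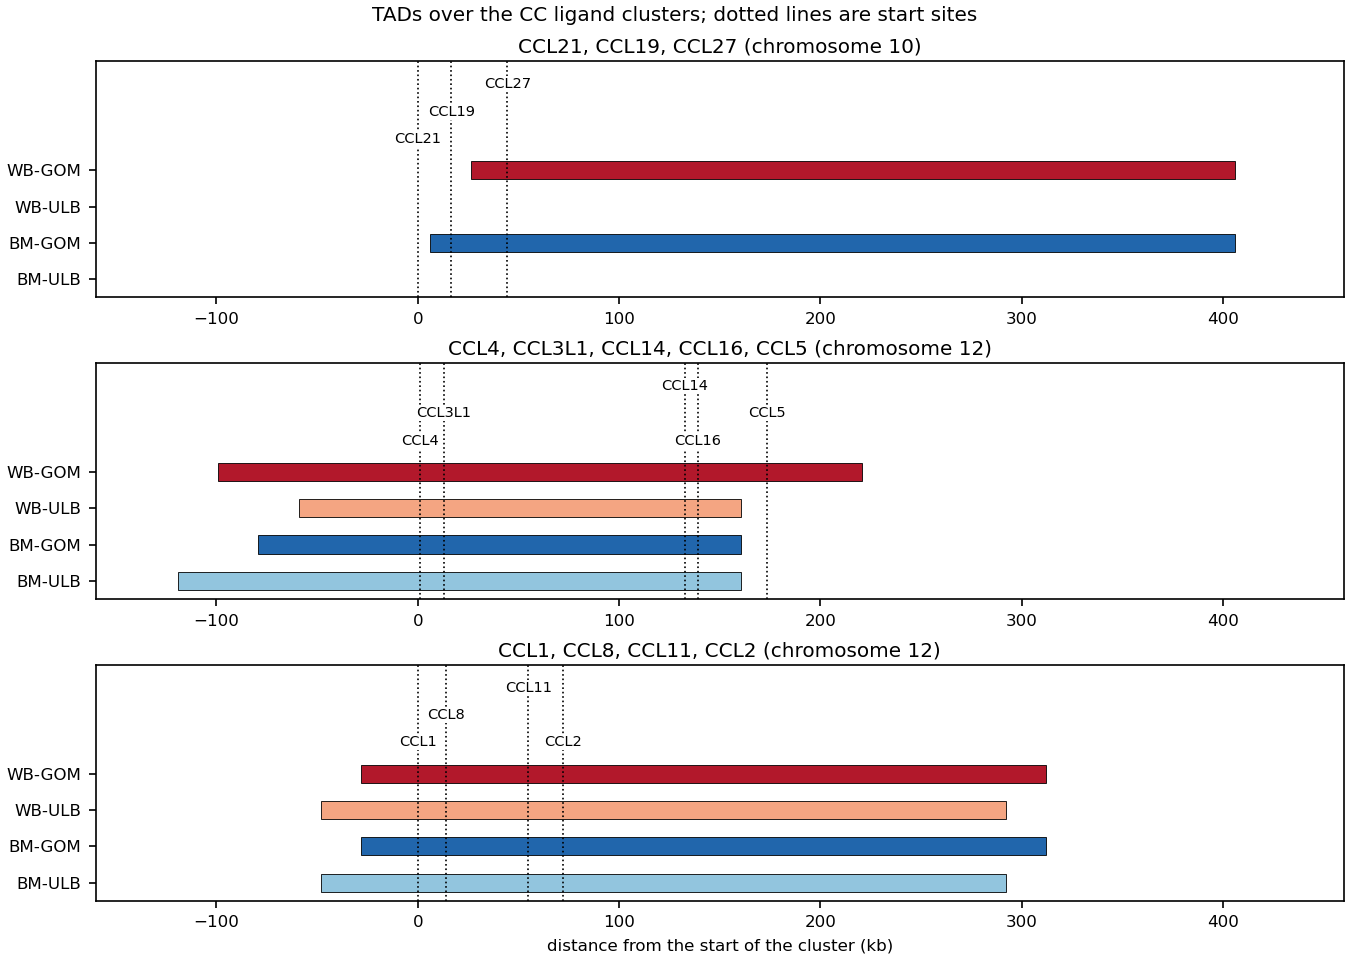
TADs of the 4 lists (bars) over the CC ligand clusters, in kb from the start of each cluster, with dotted lines at start sites. The CCL1 to CCL2 cluster lies in 1 TAD in each list, the wild boar GOM TAD holds CCL5 while the other 3 end before it, and the ULB lists have no TAD over the CCL21, CCL19 and CCL27 cluster.

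In all, 5 boundaries fell within the clusters, and 2 of them had a boundary within 40 kb in each of the other lists, against 76.8% of 30380 boundaries. The 3 boundaries at 39640000 were matched exactly among 3 lists and lay 60 kb from the nearest one in wild boar GOM. These 5 come from 2 loci and are not independent.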

How the data were processed

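RNA-seq and Hi-C values of 7 libraries each were used, grouped by the labels. Members, gene lists and motifs were chosen with earlier results of these data known. Per the labels and the study's methods, the authors quantified rRNA-depleted, stranded libraries with kallisto (0.43.0 per the labels, while the methods name a later version) against Sscrofa11.1 and deposited an estimated count and a TPM per gene, neither scaled between libraries. The TPM of the listed genes summed to 774260 to 956616 per library. The score per 20-kb bin that the authors deposited is named an A-B index, but it averaged 0 on each chromosome and was read as PC1, computed on KR and quantile normalized contacts. The TAD positions are deposited as start and end values, treated as other data without a score. The PC1 and TAD files give no counts, so their depth is unknown.

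Estimated counts were rounded. edgeR 4.0.16 (R 4.3.3) used TMM factors and genes with a TPM above 0.1 in at least 2 libraries, or, for breed in GOM, in both replicates of a breed. The design had depot and breed terms. limma 3.58.1 was fitted to PC1. Gene symbols and positions came from the NCBI tables and annotation of Sscrofa11.1, whose autosome lengths match those of the bins; all 42 members were placed, and coordinates count from 1. Values per library were given for members called, for members with a mean TPM of at least 5 in a group and for members of ligand and receptor sets. Data were simulated with 200 genes of a mean count above 5 changed 8-fold. There edgeR recovered 87% for depot, 85.5% for breed, 84.5% for breed in GOM and 47.5% for the interaction. The share false among its calls was 5.4%, 10.9%, 10.6% and 14.4%. limma recovered 70.2% of 2000 bins shifted by 20. Recovery of smaller changes or shifts, or of genes with fewer counts, was not simulated. Alternatives were DESeq2 1.42.0, other scalings, filters, a replicate block and leaving out libraries. Replicates are pigs, at most 4 animals in all. The fits reported over both depots had no term for the animal, so a pig with libraries of both depots entered them more than once. Their p-values treat libraries as independent and do not measure the spread among animals alone. Python 3.11.15 with pandas 2.3.3, numpy 2.4.6 and matplotlib 3.10.9 served for summaries and plots. Results of 1 member and 1 listed gene are not reported here by name, though counts include them; clusters and plots were made without them.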

Additional observations from a re-analysis of the deposited data

How the results depend on the processing

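Members called between depots numbered 1 in the reported fit, 6 with DESeq2, 3 without a filter (999 genes called in all), 0 in wild boar alone and 0 for wild boar in the model of 4 groups. They numbered 0 to 2 without single libraries, where CXCL14 or CX3CR1 joined CXCR4. With the replicate block the number was 5 (ACKR3, CCL2, CXCL14 and CXCR4 among them; 881 genes called in all, against 628). The sources do not say that a replicate number marks an animal. Deviations of same-numbered libraries correlated at 0.228 between wild boar depots, 0.245 between breeds in GOM and -0.161 between wild boar ULB and Bama pig GOM. For breed over both depots the number was 0 as reported, 5 with DESeq2 and 3 without a filter (503 of 19549 genes called in all). It was 1 (CXCR4) with the replicate block (77 genes called in all) and 0 to 4 without single libraries. The 4 (CCL16, CCL26, CXCR4 and XCR1) came without Bama pig GOM replicate 2, where 1779 of 17563 genes were called in all. For breed in GOM the number was 1 with DESeq2. No other count of called members moved, under the replicate block either. The interaction could not be fitted without the Bama pig ULB library. Of 29 log2 fold changes of members with an unadjusted p below 0.05, 0 changed sign in 402 refits, 28 refits gained a call and 5 lost one, all 5 for CXCR4 between depots.

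PC1 bins of members called between breeds numbered 3 without Bama pig ULB (1523 of 113298 bins called in all) and 0 otherwise. Bins switched between breeds in GOM numbered 1 as reported, 3 with PC1 centred on the chromosome median (CCL19, CCL21 and CXCL14), 0 without chromosome 10 and 1 to 4 without single libraries (4 without wild boar GOM replicate 2 and 4 without Bama pig GOM replicate 1). Between depots in wild boar they numbered 0 to 2 (2 without wild boar GOM replicate 1). Boundaries shared by all lists numbered 1 within 20 kb and 5 within 100 kb, against 2 within 40 kb. The causes were not tested, other than that fewer libraries make the switching rule easier to meet. Bama pig ULB has 1 library, so its level has no replicate check, and members under 10 counts in most libraries (CCL1, CCL3L1, CCL8, CCL11, CCL17, CCL27, CCL28, CXCL11, CXCR5, CCR6, CCR9 and CCR10) allow no firm order.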
